A study of Schizosaccharomyces pombe with 2 samples.

Results

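Thioredoxin, peroxiredoxin and sulfiredoxin form a small set of enzymes with which fission yeast, Schizosaccharomyces pombe, removes peroxides and keeps protein thiols reduced. The genes described here are those whose probe set is named srx1, tpx1, trx1, trx2, trr1 or txl1 in the array's annotation. They make up 6 of the 2896 S. pombe genes to which a probe set could be matched by a single gene ID. The matched genes cover 2914 of the array's 10928 probe sets, and probe sets that were not matched may read further S. pombe genes. Each of the 6 members has 1 probe set, and all 6 lay above background on both arrays. Their signals were compared between 1 Affymetrix Yeast Genome 2.0 array of untreated cells and 1 array of cells kept for 2 h with DETA NONOate at 0.5 mM, a compound that sets nitric oxide free slowly in solution. Both cultures were in logarithmic growth in the rich medium YES at 30 °C, and the labels name neither a strain nor a vehicle for the untreated cells. No array carries the spent compound, so nitric oxide and the remainder of the molecule cannot be told apart.

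In this system a peroxiredoxin reduces peroxides through a reactive cysteine, thioredoxin reduces the oxidised peroxiredoxin, and thioredoxin reductase restores thioredoxin at the expense of NADPH. Sulfiredoxin repairs peroxiredoxin molecules whose cysteine has been oxidised further, to sulfinic acid. In fission yeast the peroxiredoxin Tpx1 also passes oxidation on to the transcription factor Pap1, whose targets include srx1 and trr1. Trx1 is the cytosolic thioredoxin, Trx2 is the mitochondrial one, and Txl1 is a larger thioredoxin-like protein of the cytoplasm and nucleus that binds the proteasome.

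With 1 array in each group, no difference below has a replicate check and no test is possible, so a gene is counted where its signals were at least 2-fold apart. The signals are on a linear scale, and those of different probe sets are not read as relative amounts of RNA. They are ranked to judge a drift of ratio with signal and to pick 1 of several probe sets. The background level, taken as the 95th percentile of 2601 probe sets for Saccharomyces cerevisiae, was 7.99 for the untreated and 8.76 for the treated cells, against median signals of 759.7 and 751.2 for S. pombe probe sets. The 69 probe sets for added control RNAs, several of which share 1 RNA, had log2 ratios (treated over untreated) from −0.76 to 0.42 with an SD of 0.23, a spread that covers labelling and hybridization but not differences between cultures. The controls added as polyadenylated RNA had a median log2 ratio of −0.13 and those added at hybridization one of 0.07. Of the 42 probe sets of the first kind, 37 lay above background on both arrays, as did all 27 of the second. Control signals under background were raised to it, so the SD includes ratios set in part by that level. Each array was scaled as a whole, so that more RNA of 1 gene per cell and less of all other RNA cannot be told apart.

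Among the 6 genes, that of sulfiredoxin had by far the highest ratio of treated to untreated signal. The genes of cytosolic thioredoxin, the peroxiredoxin and the reductase were slightly higher on the treated array, the thioredoxin-like gene was nearly level, and the mitochondrial thioredoxin was lower. The count was 1 of 6 genes at least 2-fold higher, where 2.25% of all 2889 measured genes were, and 0 of 6 at least 2-fold lower, where 2.04% were. Ratios lay above 0 in 4 of the 6 genes, against 49.2% of all measured genes. The median log2 ratio of the 6 was 0.27, and that of all measured genes was −0.01.

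**Figure D1:**
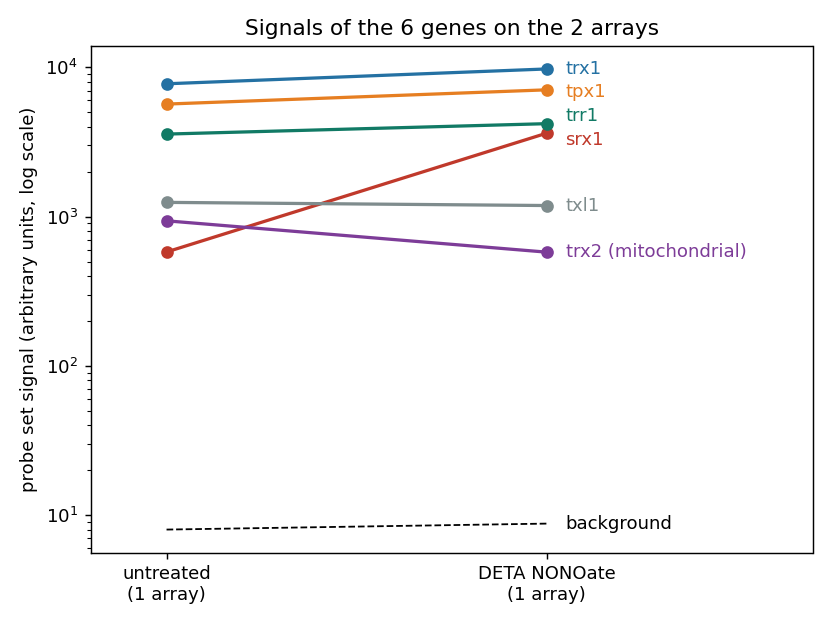
Probe set signal of the 6 genes (vertical axis, arbitrary units, log scale) on the untreated and the DETA NONOate array, 1 point per array, with a line joining the points of a gene and a dashed line at the background level. The steep line is srx1, from 579.5 to 3621, and the line that falls is trx2, from 937.2 to 578.1; levels of different probe sets are not comparable.

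The sulfiredoxin gene srx1 (SPBC106.02c) read 579.5 without the compound and 3621 with it. This is a 6.25-fold higher signal, or a log2 ratio of 2.64. Both signals were far over background, at 72.5 times its level without and 413 times with the compound. Of the 2889 measured genes, 6 had a higher ratio. The substrate of sulfiredoxin, the peroxiredoxin, did not show a difference of this size.

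The peroxiredoxin gene tpx1 (SPCC576.03c) had signals of 5677 and 7073, which is 1.25-fold higher on the treated array (log2 ratio 0.32). The log2 ratio of srx1 exceeded that of tpx1 by 2.33, so that the signal of the repair enzyme's gene relative to that of its substrate's gene was 5.01 times as high on the treated array as on the untreated one. The log2 ratio of tpx1 was 1.36 times the SD of the added controls, and 14.5% of measured genes had a higher one.

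The gene of cytosolic thioredoxin, trx1 (SPAC7D4.07c), had signals of 7765 and 9761, a 1.26-fold difference (log2 ratio 0.33). The gene of thioredoxin reductase, trr1 (SPBC3F6.03), which serves to reduce thioredoxin with NADPH, had signals of 3573 and 4196, a 1.17-fold difference (log2 ratio 0.23). The ratios of trx1, tpx1 and trr1 thus lay within 0.10 of each other on the log2 scale, and each was at most 1.41 times the SD of the added controls. These are bright probe sets: trx1 was at percentile 97.8 of measured genes by mean signal, tpx1 at 94.2 and trr1 at 88.5. The ratios of all genes drifted upward at the bright end, and a loess trend of ratio on signal stood at 0.15 at the signal of trx1, 0.08 at that of tpx1 and −0.02 at that of trr1. With this trend removed the log2 ratios of trx1, tpx1 and trr1 were 0.18, 0.24 and 0.25, and with quantile normalization that of trx1 was 0.15. The order of these 3 genes therefore turned with the scaling, while all 3 ratios remained above 0 in every setting tried.

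The gene of the thioredoxin-like protein, txl1 (SPBC577.08c), had signals of 1246 and 1187, a log2 ratio of −0.07. This is smaller than the SD of the added controls, and 42.7% of measured genes had a lower ratio. Like most measured genes, those of the 5 listed subunits of the proteasome, the particle to which Txl1 binds, also lay within 2-fold. They ranged from −0.23 for rpt5, an ATPase of the base, to 0.26 for rpn2, a large subunit of the base, and the deubiquitinating subunit gene rpn11 had −0.07.

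The gene of mitochondrial thioredoxin, trx2 (SPBC12D12.07c), had the lowest ratio of the 6. Its signal was 937.2 without and 578.1 with the compound, or 1.62-fold lower (log2 ratio −0.70). This did not reach 2-fold, and 4.81% of measured genes had a lower ratio. At a threshold of 1.5-fold trx2 counted as lower, as did 6.61% of all measured genes. The log2 ratio of trx2 was −2.98 times the SD of the added controls. Of the 69 probe sets for added control RNAs, 2 had a lower log2 ratio than trx2, down to −0.76.

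**Figure D2:**
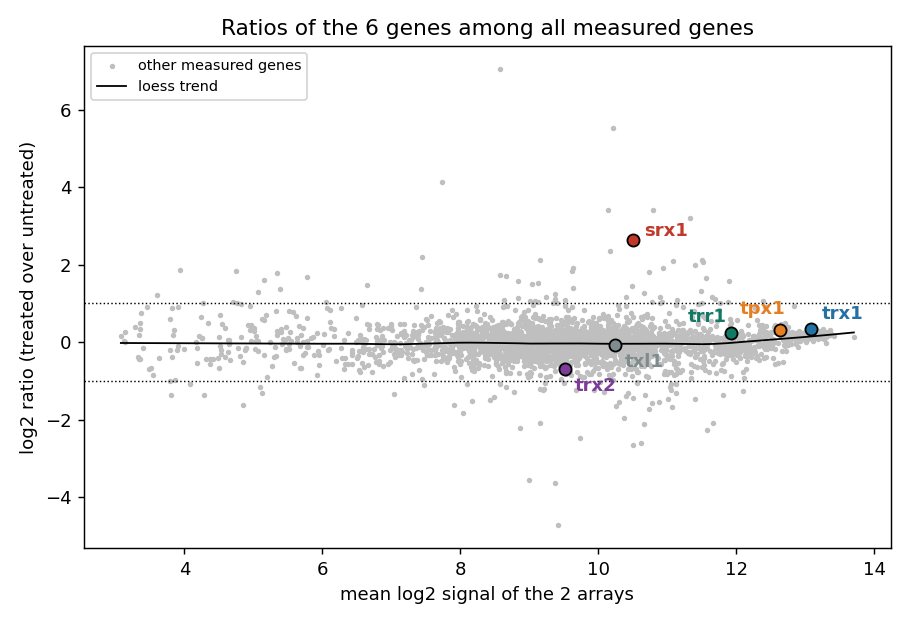
Log2 ratio of the treated over the untreated array (vertical axis) against the mean log2 signal of both arrays (horizontal axis) for 2889 measured genes, with the 6 genes marked, the loess trend as a line and dotted lines at 2-fold. srx1, at 2.64, lies far above the cloud, and trx2, at −0.70, lies in its lower part, with 4.81% of measured genes below it. The genes trx1, tpx1 and trr1 sit toward the bright end, where the trend bends upward.

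Set by compartment, the 5 members outside the mitochondrion had log2 ratios from −0.07 to 2.64 with a median of 0.32, and the single mitochondrial member had −0.70. The closest pair is that of the thioredoxins themselves, where the log2 ratio of trx1 exceeded that of trx2 by 1.03, a 2.04-fold difference between their ratios. That gap was 0.80 to 1.03 over the settings tried, and therefore under 2-fold in some of them. Without srx1, the median of the other 4 non-mitochondrial members was 0.27.

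Other genes of mitochondrial redox proteins did not share 1 direction. Of the 6 listed, 4 were measured. Against a share of 2.04% of all measured genes, 1 of these 4 was at least 2-fold lower. This was grx5, whose product is a glutaredoxin of iron-sulphur cluster assembly, with signals of 1175 and 277.8, or 4.23-fold lower. The gene of the other mitochondrial glutaredoxin, grx2, had a log2 ratio of 0.09. The genes mia40 and erv1, of the disulphide relay in the space between the mitochondrial membranes, had 0.18 and 0.73. The cytosolic glutaredoxin gene grx1 had 0.38, so that its ratio exceeded that of grx5 by 2.47 on the log2 scale but that of grx2 by 0.30.

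The genes next to the members were read as well. Of the 12 protein-coding genes that flank the members in the RefSeq annotation, 8 were measured. None of these was 2-fold higher or lower, as for most measured genes. Both neighbours of trx2 were lower on the treated array, where 49.2% of all measured genes had a ratio above 0. The gene ned8, for a ubiquitin-like modifier, had signals of 859.7 and 466.6 (log2 ratio −0.88), the lowest ratio among the 8 neighbours. The gene srb11, for the cyclin of the Mediator complex, had −0.38. A link between trx2 and its neighbours was not tested. The measured neighbour of srx1, the spindle checkpoint kinase gene mph1, had signals of 470.5 and 493 (log2 ratio 0.07), unlike the 6.25-fold difference of srx1 beside it. Measured neighbours of the other members had 0.24 for bxi1 next to tpx1, 0.22 for alg3 next to trx1, −0.35 for nop14 next to trr1, and 0.09 and 0.32 for ubp10 and ckn1 on the sides of txl1.

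Among other peroxide-removing enzymes, 2 of 5 listed genes were measured, and they went opposite ways. In this and the other lists, a gene to which no probe set was matched also counts as not measured. Such a gene may still be read by a probe set that was not matched. Of the 2896 matched genes, 2889 were measured. The gene gpx1, for a glutathione peroxidase family enzyme that in fission yeast can draw on thioredoxin, gave 4009 and 7523 and was 1.88-fold higher. The catalase gene ctt1 had 2639 and 1024 and was 2.58-fold lower. Of the listed reductases that depend on thioredoxin, 3 of 5 were measured and all lay within 2-fold, like most measured genes. The large subunit gene of ribonucleotide reductase, cdc22, gave 2007 and 3948, a 1.97-fold higher signal on the treated array, and passed 2-fold after quantile normalization or removal of the loess trend. The small subunit gene suc22 and the sulphate assimilation gene met16 had log2 ratios of −0.37 and −0.41.

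Genes for the supply of NADPH, which thioredoxin reductase consumes, had 4 of 5 listed members measured. All 4 lay within 2-fold, like most measured genes. The gene zwf1, for glucose-6-phosphate dehydrogenase at the entry of the pentose phosphate pathway, gave 3631 and 6701, which is 1.85-fold higher. The isocitrate dehydrogenase gene idp1 had the lowest ratio of the list, −0.11. Genes of thiol oxidation in the endoplasmic reticulum had 3 of 7 listed members measured, with log2 ratios from 0.23 for ero12 to 0.30 for ero11.

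The glutathione system, the cell's other thiol-reducing system, had all 11 listed genes measured, with 1 at least 2-fold higher and 1 at least 2-fold lower. Of all measured genes, 2.25% were higher by that much and 2.04% lower. The median log2 ratio of the 11 genes was 0.30, beside 0.27 for the 6 thioredoxin system genes. The glutathione S-transferase gene gst2 was 9.29-fold higher and grx5 formed the lower end. The glutathione reductase gene pgr1, the counterpart of trr1 in this system, had signals of 2602 and 3327 and a log2 ratio of 0.35.

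The Pap1 targets listed beside srx1 and trr1 were mostly higher. Of 6 measured, 3 were at least 2-fold higher and 1 was at least 2-fold lower, and their median log2 ratio was 1.26. Of all measured genes, 2.25% were at least 2-fold higher and 2.04% lower. The list was drawn up with earlier results of these data known. Along with gst2, higher signals were read for the efflux transporter genes bfr1 (2.98-fold) and caf5 (2.97-fold), while obr1 was 1.92-fold and the efflux transporter gene pmd1 1.79-fold higher. Catalase, again, was the lower gene. Within this regulon the genes of the thioredoxin system itself were unequal, with a log2 ratio of 2.64 for srx1 and 0.23 for trr1. Genes that sense peroxide and regulate the response lay within 2-fold in all 13 measured cases, as did most measured genes. The pap1 gene had signals of 1682 and 1791 (log2 ratio 0.09), the response regulator gene prr1 had 0.14, and the list ran from −0.45 for hba1, which takes part in the nuclear export of Pap1, to 0.39 for pcr1, the partner of the stress factor Atf1.

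**Figure D3:**
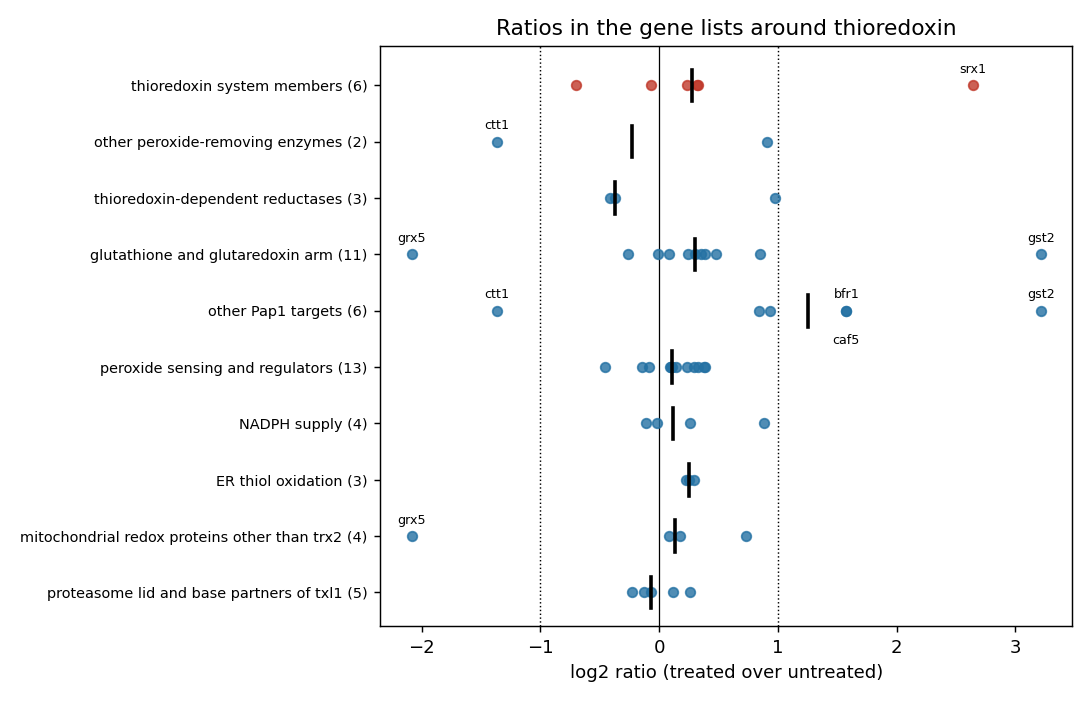
Log2 ratios (horizontal axis, treated over untreated) of the measured genes in 10 gene lists, 1 point per gene, with the number measured in brackets, a bar at each list's median, dotted lines at 2-fold and names beside genes past them. Of the 6 thioredoxin system genes (top line) srx1 alone passed 2-fold. Of the 6 other Pap1 targets, 3 did so in the same direction and 1, ctt1, in the opposite one.

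The pattern of a gene over these arrays is its ratio alone, so likeness was measured as the distance in log2 ratio over 2 samples. For srx1 no other measured gene came within 0.1 of its log2 ratio. The 3 closest were sib2 (2.36), of siderophore synthesis, ght3 (2.20), of the hexose transporter family, and str1 (2.13), a siderophore transporter gene. For trr1, 549 other genes lay within 0.1, so the 3 closest, nuc2, nak1 and rps21, all at 0.23, tell little about it.

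**Figure D4:**
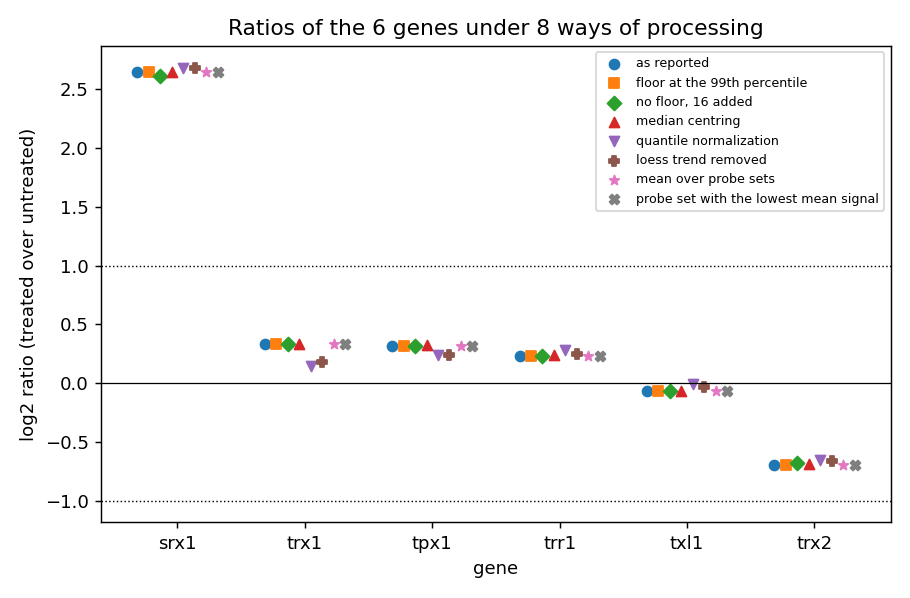
Log2 ratio (vertical axis, treated over untreated) of each of the 6 genes (horizontal axis) as reported and under 7 other ways of processing, 1 marker per setting, with dotted lines at 2-fold. srx1 stays between 2.61 and 2.68 and trx2 between −0.70 and −0.65, while trx1 ranges from 0.15 to 0.34. The rules for several probe sets and the higher background level leave all 6 ratios unchanged.

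The array also carries S. cerevisiae probe sets for the same enzymes, and 5 of 10 such genes had a named one. The S. cerevisiae SRX1 probe set read 0.283 without and 0.605 with the compound, both under background, and those of TRX1, TRX2 and TRX3 lay under background on both arrays as well, while that of TRR1 read 4.53 and 12.6 and passed it on the treated array. Since background was set from the S. cerevisiae probe sets, most of them lie under it by construction, and these values do not test what the S. pombe probe sets bind. In 7 S. pombe control transcripts read in 3 parts, the log2 ratio of the 5' part was lower than that of the 3' part in 5 and higher in 2, with a median difference of −0.12 and a range from −0.38 to 1.35, the highest in gpd3. In gpd3 the 5' part was read by a probe set of the type _at and the 3' part by 1 of the type _s_at. The middle part of gpd3, read by both types, gave 0.68 and 0.18. Where in their transcripts the members' probes lie is not known here, and the part of RNA integrity in their ratios was not tested.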

How the data were processed

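The deposited table holds 1 linear intensity per probe set and array. The submitters' processing notes name Affymetrix Expression Console for its making, and its version and algorithm were not given in the sources used here. Biotin-labelled cRNA was made from 250 ng total RNA, per the labels' protocols. The 2% trimmed means of the arrays, 500.3 on both, showed a common scaling. Groups follow the labelled treatment.

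Names came from the platform annotation. Those of S. pombe were brought up to date through the gene ID in the RefSeq table of assembly ASM294v3, which also gave the neighbours. The 2914 probe sets whose single gene ID was in that table were taken as those of S. pombe. The array has 10928 probe sets, and those without a name, with several genes or with another gene ID were not taken as S. pombe. Signals under the 95th percentile of S. cerevisiae probe sets were raised to it before log2, and a gene was measured if it passed that level on at least 1 array (2889 genes, 2876 on both). Listed or flanking genes to which no probe set was matched by a single gene ID were also counted as not measured. Of several probe sets the brightest was used. The steps were run on simulated data with planted differences, which checks the calculation but not the spread between arrays or cultures. Members and lists were chosen with earlier results of these data known. A rule named all members, each list's highest and lowest gene, every listed gene past 2-fold, flanking genes and closest ratios, and rpn11, grx1, grx2, mia40, suc22, pgr1, obr1, pmd1, pap1 and prr1 were added after their values were seen. Protein and promoter motifs were planned, but sequences were not used here. Calculations ran in Python 3.11.15 with statsmodels 0.14.6.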

Additional observations from a re-analysis of the deposited data

Results flagged for a closer look

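The S. cerevisiae TRR1 probe set, which has no intended target in this RNA, read 4.53 without and 12.6 with the compound and so lay above the background level of 8.76 on the treated array only. By the way that level was set, 130 of the 2601 S. cerevisiae probe sets lie above it there. No other probe set of the 5 S. cerevisiae counterparts did so.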

How the results depend on the processing

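Under 7 other ways of processing and thresholds of 1.5-fold and 3-fold, srx1 remained past 2-fold, and each of the 6 genes' log2 ratios kept its sign and moved by less than the SD of the added controls, 0.23. Their ranges were 2.61 to 2.68 for srx1, 0.24 to 0.32 for tpx1, 0.15 to 0.34 for trx1, 0.23 to 0.29 for trr1, −0.07 to −0.01 for txl1 and −0.70 to −0.65 for trx2. The non-mitochondrial median exceeded trx2 by 0.89 to 1.01. At 1.5-fold, 1 member (trx2) counted as lower, and 164 of all genes were higher and 191 lower. At 3-fold these were 26 and 18. The median of the proteasome list changed sign, from −0.07 to 0.01, under quantile normalization. The rules for genes with several probe sets could not move the 6 genes, which have 1 each. The higher background level also left all 6 ratios unchanged, and median centring shifted all of them by the same small amount. The stability of the ratios therefore rests on the remaining settings. No paired analysis was possible because each group has 1 array. The number of arrays limits the precision of every value.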
